A study of Mus musculus with 3 samples.

Results

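Protocadherins are the largest branch of the cadherin superfamily of cell adhesion proteins. The 69 protein-coding mouse genes whose symbol starts with Pcdh were taken from the 21887 protein-coding genes that RefSeq annotates on GRCm38.p6 (mm10). They comprised 57 clustered genes (14 of the alpha, 22 of the beta and 21 of the gamma cluster) and 12 single genes elsewhere. Accessible chromatin at these genes was read from ATAC-seq, which marks the DNA that a transposase can reach and cut. The cells were ECOMG, a mouse myeloid progenitor line, of genotype FKBP12F36V_NIPBL, in which NIPBL carries a degron tag that the small molecule dTAG targets. All 3 groups were grown with GM-CSF and β-estradiol and differed in dTAG and time: 0 h without dTAG, 6 h with dTAG and 72 h with dTAG. Each group was 1 library from 50000 cells, whether the line is 1 clone is not given in the sources used here, and no library without dTAG at 6 h or 72 h was analysed here. Differences therefore have no replicate check, no test between times was made, and the effects of dTAG, of time and of the library itself cannot be told apart.

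Clustered protocadherin genes each have a promoter of their own in front of a large variable exon, and the alpha and gamma genes join that exon to constant exons shared within the cluster, while the beta genes are single-exon genes. Neurons express a small, individually varying set of them, which gives each cell a surface identity used to tell self from other neurites. The choice of promoter is known to use CTCF sites at the promoters and, in alpha genes, in the variable exons, and loops made by cohesin to distant enhancers, and NIPBL is the factor that loads cohesin on DNA. The single genes encode adhesion proteins of the delta-1 group (Pcdh1, Pcdh7, Pcdh9 and Pcdh11x), the delta-2 group (Pcdh8, Pcdh10, Pcdh17, Pcdh18 and Pcdh19) and others (Pcdh12 of endothelium, Pcdh15 of inner ear hair cells, and Pcdh20). Most are known for roles in the nervous system.

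The single genes show how differently members behaved in this line, and 5 of their promoters are printed for that contrast. Each line gives the 250 bases before the RefSeq start site (GRCm38.p6), 5′ to 3′ on the gene's strand, with GC boxes (GGGCGG on either strand) in capitals. The Pcdh17, Pcdh7 and Pcdh19 windows overlapped an accessible region at 0 h, and the Pcdh10 and Pcdh18 windows overlapped none in any library.
Pcdh17, chr14:84443313-84443562, plus strand: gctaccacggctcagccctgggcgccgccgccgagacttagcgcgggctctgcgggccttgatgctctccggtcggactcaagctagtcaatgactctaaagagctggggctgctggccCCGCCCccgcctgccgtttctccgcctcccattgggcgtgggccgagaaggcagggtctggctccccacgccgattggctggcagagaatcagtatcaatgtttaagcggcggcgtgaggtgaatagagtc
Pcdh7, chr5:57717831-57718080, plus strand: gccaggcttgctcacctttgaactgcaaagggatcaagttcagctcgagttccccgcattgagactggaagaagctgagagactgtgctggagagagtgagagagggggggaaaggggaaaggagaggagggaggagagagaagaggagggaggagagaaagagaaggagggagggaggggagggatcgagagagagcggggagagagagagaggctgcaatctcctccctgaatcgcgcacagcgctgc
Pcdh19, chrX:133688994-133689243, minus strand: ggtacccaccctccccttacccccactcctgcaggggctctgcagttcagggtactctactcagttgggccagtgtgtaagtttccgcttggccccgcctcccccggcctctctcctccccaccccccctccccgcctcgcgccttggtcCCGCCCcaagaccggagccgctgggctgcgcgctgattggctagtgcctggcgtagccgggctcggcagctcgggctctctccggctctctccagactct
Pcdh10, chr3:45378148-45378397, plus strand: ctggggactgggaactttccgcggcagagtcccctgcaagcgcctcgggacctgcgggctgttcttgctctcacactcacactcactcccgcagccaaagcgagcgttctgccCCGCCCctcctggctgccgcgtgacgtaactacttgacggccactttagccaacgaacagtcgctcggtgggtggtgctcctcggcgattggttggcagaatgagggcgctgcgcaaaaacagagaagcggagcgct
Pcdh18, chr3:49757317-49757566, minus strand: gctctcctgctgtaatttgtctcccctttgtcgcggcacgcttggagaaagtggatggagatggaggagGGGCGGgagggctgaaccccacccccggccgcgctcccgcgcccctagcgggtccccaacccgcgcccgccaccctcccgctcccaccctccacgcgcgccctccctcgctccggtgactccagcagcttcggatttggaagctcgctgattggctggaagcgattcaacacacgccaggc

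The Pcdh17 window was covered over all 250 bases in each library. The Pcdh7 window was covered over 246 bases at 0 h and 250 at 6 h, and over 0 at 72 h. The annotated Pcdh7 span begins before this window, at chr5:57716145. A region over that end was listed at 0 h and 6 h, and at 72 h the region there ended before it, at chr5:57715992. Of the Pcdh19 window, 86, 113 and 0 bases were covered in the same order. CpG content did not follow accessibility among these 5 windows, which were picked for contrast. Pcdh17 held 21 CpG dinucleotides, Pcdh10 held 22 and Pcdh18 held 23, against 16 in Pcdh19 and 7 in Pcdh7. The windows of the other genes with a given start overlapped no region and held 3 (Pcdh20), 6 (Pcdh15), 11 (Pcdh8) and 18 (Pcdh9). Start sites were given for 9 single genes in 10 windows. A GC box lay in 4 of the 9 genes (Pcdh17, Pcdh19, Pcdh10 and Pcdh18), and in 42.6% of 21263 windows of all coding genes. The TATA box (TATAAA) was found in 2 of 9 (Pcdh15 and Pcdh8) against 11.6% of windows. Of the letters at the core of CTCF sites, AGGGGGC was found in Pcdh9 alone (11.6% of windows) and AGGTGGC in none (5.10%), counting both strands, with no overlap between motifs required or removed. A match is a description of letters in these windows.

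A region below means 1 line of a deposited peak list, and its fold is the authors' value, the height of the peak over the caller's background in its own library. The 3 lists counted 182233 (0 h), 178055 (6 h) and 145044 (72 h) regions. A locus reaches 10 kb beyond either end of the gene, and each region was counted once where loci overlap. A region lay within 1 kb of a gene end of 10 of 12 myeloid marker genes in each library, against 64.2%, 63.8% and 59.1% of all coding genes. The same was true of 9, 6 and 6 of 10 neural, 5, 6 and 6 of 7 erythroid and megakaryocyte, 4, 3 and 3 of 7 lymphoid, and 6, 6 and 5 of 8 epithelial, endothelial and stromal markers. Open gene ends thus did not set the myeloid markers apart from those of other cells. Myeloid marker loci held 181, 182 and 187 regions in total. By gene, 6 of the 12 held fewer at 72 h than at 0 h and 4 held more. Ptprc held 22, 20 and 38 regions, and Elane 24, 20 and 13. The other marker lists each held fewer in total at 72 h than at 0 h. Neural loci held 150, 142 and 93, erythroid 56, 55 and 39, and lymphoid 51, 48 and 27. Epithelial, endothelial and stromal marker loci held 97, 93 and 61. Over all coding loci the 72 h number was 0.846 times that at 0 h. The Nipbl locus held 27, 31 and 30 regions, which says nothing about the protein.

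At 0 h, 6 h and 72 h, protocadherin loci contained 175, 188 and 111 regions. Over all coding loci the numbers were 133203, 130728 and 112737. The protocadherin count at 72 h was thus 0.634 times that at 0 h. Relative to the same change over all coding loci, the 72 h ratio was 0.749 (95% counting interval 0.585 to 0.956) and the 6 h ratio 1.09 (0.886 to 1.35). The interval treats both counts as independent and covers counting error only. With the same number of regions taken from each list the 72 h ratio was 0.793 (0.611 to 1.03), an interval that includes no change. Coding loci of chromosome 18, which carries 59 of the 69 genes, gave 0.960 (0.915 to 1.01).

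By group, the alpha cluster held 17, 17 and 7 regions at 0 h, 6 h and 72 h, the beta cluster 34, 37 and 32, and the gamma cluster 42, 39 and 30. The 12 single genes together held 82, 95 and 42. Relative to all coding loci, the 72 h count was 0.487 times the 0 h count in alpha (0.171 to 1.23), 1.11 in beta (0.664 to 1.86), 0.844 in gamma (0.510 to 1.38) and 0.605 in single genes (0.407 to 0.888). Of these 4 intervals, that of the single genes alone excluded 1, and under 3 alternatives it included 1. It was 0.688 (0.451 to 1.04) with equal numbers of regions per list, 0.717 (0.378 to 1.34) for regions with a fold of 10 or more, and 0.572 (0.312 to 1.02) for those reaching a −log10 q of 10. The 4 intervals overlap one another, so the groups were not shown to differ in this count. Per 100 kb of locus, clustered genes held 12.9, 12.9 and 9.56 regions, single genes 2.03, 2.35 and 1.04, and all coding loci 10.3, 10.1 and 8.75.

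**Figure D1:**
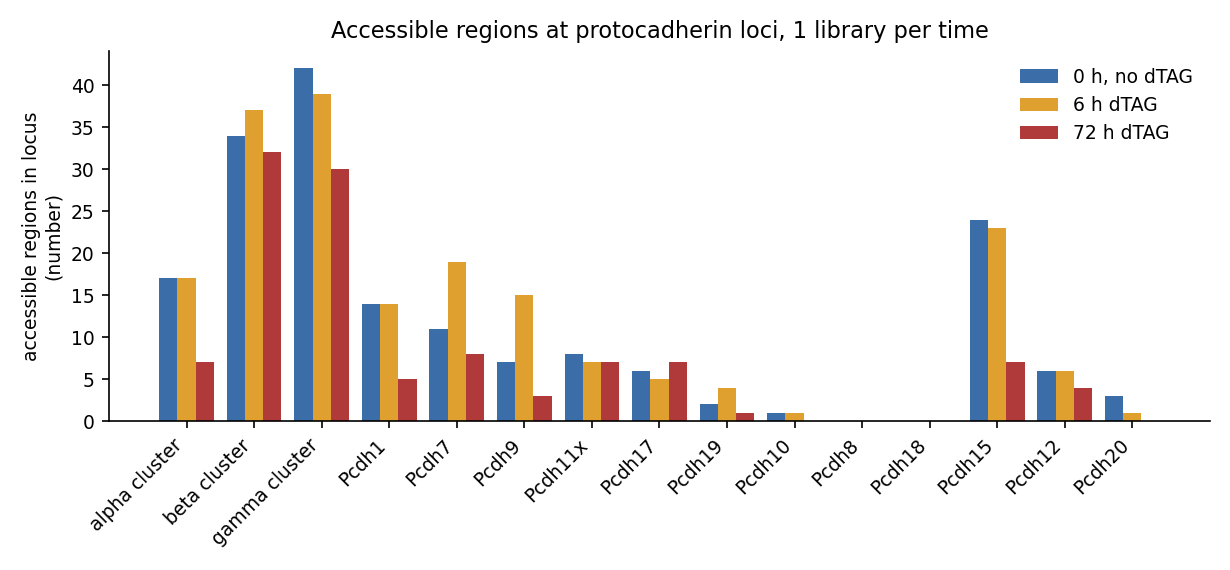
Number of accessible regions (vertical axis) in each protocadherin cluster and single gene with 10 kb on each side, at 0 h, 6 h and 72 h, with 1 library per bar. Alpha has 17 at 0 h and 7 at 72 h and Pcdh15 has 24 and 7, while beta has between 32 and 37 and Pcdh8 and Pcdh18 have none.

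Locus by locus, a change was called where one list held at least 2 times the regions of the other, with at least 6 regions in both lists together. At 6 h, 60 of 69 members passed that minimum. None was lower (background 2.08% of coding loci) and 3 were higher (Pcdh9, Pcdhb5 and Pcdh19; background 1.26%), or 0 with 50 kb on each side. At 72 h against 0 h, 57 passed, 15 were lower (background 13.3%) and 0 were higher (background 1.55%). The 15 were Pcdha1 to Pcdha12, Pcdh1, Pcdh9 and Pcdh15. The alpha genes share their 3′ ends and hence most of their locus, so the 12 alpha calls are in effect 1 observation, and with equal numbers of regions per list 4 members were lower. At 72 h against 6 h, 55 passed, 16 were lower (background 11.8%) and 1 was higher (Pcdhb20; background 1.52%).

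Strong regions, the upper 50% of each list by −log10 q, numbered 89, 85 and 37 in protocadherin loci at 0 h, 6 h and 72 h. The cutoff rose with the list, with a −log10 q of 7.82, then 9.25, then 13.0. At 6 h, 3 of 89 strong 0 h regions had no region of any strength over them (3.37%, against 2.48% of all strong regions). In the other direction, 2 of 85 strong 6 h regions had none at 0 h (2.35%, against 1.71%). At 72 h, 22 of 89 were absent (24.7%, exact interval 16.2 to 35.0, against 15.7% of all). Only 1 of 37 strong 72 h regions was absent at 0 h (2.70%, against 7.21%). Between 6 h and 72 h, 20 of 85 were absent later (23.5%, against 12%) and 1 of 37 was absent earlier (2.70%, against 5.48%). Restricting strong to a fold of at least 10 gave 5 of 53 absent at 72 h (9.43%, against 6.22% of all such regions).

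Absence of strong regions was most frequent among the single genes, at 16 of 39 (41.0%, 25.6 to 57.9) by 72 h. It was 2 of 6 in alpha, 1 of 20 in beta and 3 of 24 in gamma, or 6 of 50 in all clustered genes (12%, 4.53 to 24.3). These intervals of clustered and single genes do not overlap, but they do under other definitions of strong. With a fold of 10 or more, 4 of 25 single (16.0%, 4.54 to 36.1) and 1 of 28 clustered regions (3.57%, 0.0904 to 18.3) were absent. With a −log10 q of 10 or more, these were 12 of 34 (35.3%, 19.7 to 53.5) and 3 of 37 (8.11%, 1.70 to 21.9). Of the 12 single genes, 8 lie in the gene-poor part of the genome (the lowest of 3 equal parts of 1 Mb bins by coding genes), where 25.3% of all strong 0 h regions were absent at 72 h. The single genes there gave 12 of 28 (42.9%, 24.5 to 62.8), an interval that includes that background. In the gene-dense part, where all clustered genes lie, the background was 13.3%. The clustered genes lie in a bin of 67 coding genes, a count that includes them, so they help set their own class. Their class without them was not examined. There the clustered genes gave 12% and the single genes 4 of 10 (40.0%, 12.2 to 73.8). All 4 non-myeloid marker lists given above also held fewer regions at 72 h than at 0 h, and their part in this result was not tested.

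**Figure D2:**
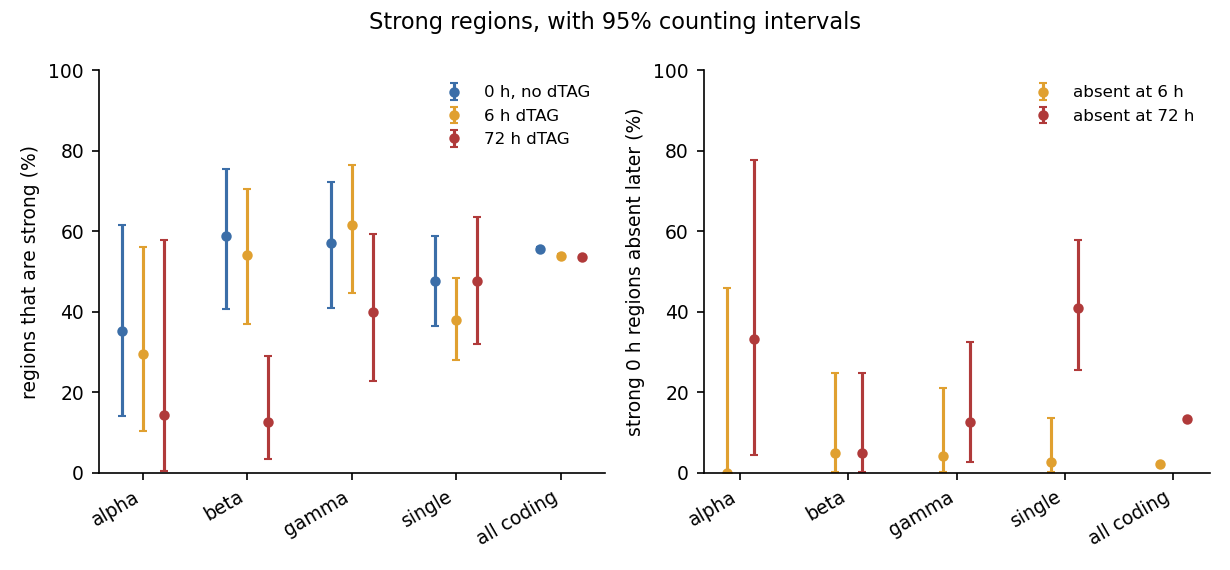
Left, share of regions in each group that are strong in their own list (percent); right, share of strong 0 h regions with no region over them at 6 h or 72 h (percent). Points are shares from 1 library or pair of libraries and bars are exact 95% counting intervals. The beta share is 58.8% at 0 h and 12.5% at 72 h, and the single genes have the highest absent share at 72 h, 41.0%.

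In the beta cluster the number of regions at 72 h was near that at 0 h, but few of them were strong. Strong regions numbered 20, 20 and 4. This was 58.8% (40.7 to 75.4) of its regions at 0 h, 54.1% at 6 h and 12.5% (3.51 to 29.0) at 72 h, whereas over all coding loci the share was 55.7%, 54.0% and 53.6%. With a fixed minimum, 15, 18 and 5 beta regions reached a −log10 q of 10. At 72 h this is 0.324 (0.0922 to 0.938) times the 0 h count relative to coding loci. A fold of 10 or more was reached by 9, 12 and 4 beta regions. That 72 h ratio was 0.398 (0.0897 to 1.43), with an interval that includes no change. In gamma the strong share was 57.1%, 61.5% and 40.0% (22.7 to 59.4), and in alpha 6, 5 and 1 regions were strong. Single genes kept their share, at 47.6%, 37.9% and 47.6%, on fewer regions. Protocadherin regions were also short, with a median of 118, 118 and 112 bp against 135, 140 and 156 bp in all coding loci.

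Of the regions of clustered genes, 49 of 93, 49 of 93 and 42 of 69 lay within 1 kb of a start, and in gamma 18 of 42, 18 of 39 and 13 of 30. Starts were placed at the lower end of each span, since the clustered genes all run in that direction. A region lay within 1 kb of the start of 41, 37 and 34 of 57 clustered genes in the 3 libraries, and of the same 30 genes in all of them. The background was 61.5%, 61.2% and 57.5% of 17492 coding genes with a start. By cluster the counts were 8, 6 and 4 of 14 in alpha, 19, 18 and 21 of 22 in beta, and 14, 13 and 9 of 21 in gamma. In beta, 17 genes had one at every time and Pcdhb1 had none at any time. Of the single genes with a given start, Pcdh17 and Pcdh7 had a start region in all libraries, Pcdh19 at 0 h and 6 h, and 6 of 9 in none.

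These start regions were low and narrow next to those of other genes. Their median fold in beta was 9.83, 8.29 and 6.25 in time order, with a range from 3.12 to 20.3 over the libraries. Over all coding genes with a start region the median was 59.0, 67.8 and 71.0. Median length in beta was 119, 140 and 112 bp, against 516, 508 and 416 bp. The summit lay within 100 bp of the start in 16 of 19, 15 of 18 and 17 of 21 beta genes (84.2%, 83.3% and 81.0%), in 3 of 8, 3 of 6 and 2 of 4 alpha genes and in 12 of 14, 10 of 13 and 7 of 9 gamma genes, against 63.8%, 64.3% and 67.8% of all coding genes with a start region. The exact 95% intervals of the beta shares (60.4 to 96.6, 58.6 to 96.4 and 58.1 to 94.6) include these backgrounds. The median beta summit was at -39, -35 and -50 bp from the start, negative meaning before it.

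Among single beta genes, Pcdhb3 had the highest start region at 6 h, with folds of 11.3, 20.3 and 10.1 at 0 h, 6 h and 72 h. Pcdhb6 had 13.6, 13.6 and 4.68, and Pcdhb17 had 12.9, 13.6 and 7.81. Pcdhb12 went from 9.83 to 5.27 and 3.12. Pcdhb18 ran the other way, with 3.78, 6.78 and 10.1, and Pcdhb9 stayed level at 6.80, 6.78 and 7.03. Of the 19 beta genes with a start region at both 0 h and 72 h, 12 had the lower fold at 72 h and 7 the higher. Only Pcdhb3 and Pcdhb18, 2 of 21 beta genes with a start region, had a strong one at 72 h, against 14 of 19 at 0 h. Over all coding genes with a start region the strong share was 88.8% at 72 h and 88.9% at 0 h. The cutoff for strong rose from a fold of 6.80 at 0 h to 9.37 at 72 h. Part of the drop thus comes from the cutoff, as at Pcdhb9, which was strong at 0 h and not at 72 h. The beta genes are similar in sequence, and how the authors treated reads that map to several of them is not given in the sources used here.

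**Figure D3:**
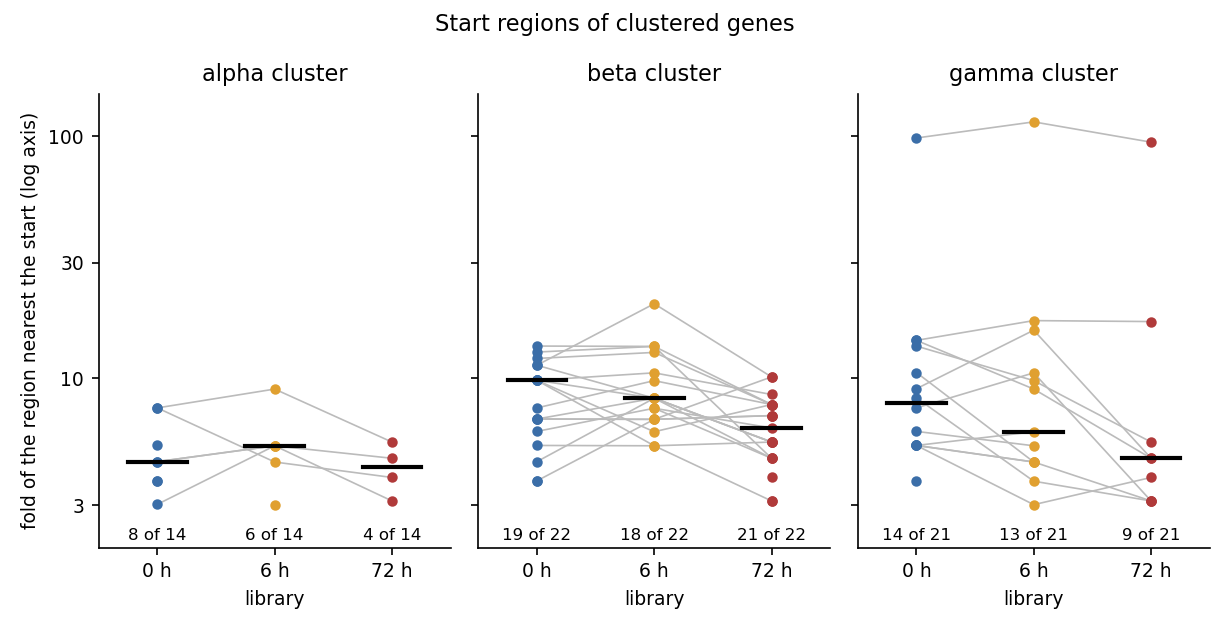
Fold (log axis) of the region nearest the start of each clustered gene within 1 kb, in the 0 h, 6 h and 72 h libraries, with lines joining the same gene in consecutive libraries. Black bars are medians, the counts under the points give genes with a start region, and Pcdhgc3 stands alone near 100 in the gamma panel.

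In alpha the start regions were fewest and lowest. Pcdha6, Pcdha7, Pcdha8 and Pcdha9 had one in every library, and the folds of Pcdha6 were 7.56, 9.04 and 5.46. Pcdha2, Pcdha4, Pcdha11 and Pcdhac1 had one at 0 h and none at 72 h, with 0 h folds between 3.78 and 5.29. These values lie close to the lowest fold listed at 72 h, 3.12, so a lower signal may be unlisted. Pcdha1, Pcdha3, Pcdha5, Pcdha12 and Pcdhac2 had none at any time. The highest alpha region lay 427 bp after the start of Pcdha8 (chr18:36992820-36993060), with folds of 18.1, 16.6 and 14.8. Its neighbour 540 bp after the start of Pcdha7 had 14.4, 13.6 and 4.68.

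In gamma, Pcdhgc3, a C-type gene next to the constant exons, had the highest region of all 3 clusters at its start (chr18:37805972-37806469), with folds of 98.3, 115 and 94.5. Pcdhga1, the first gene of the cluster, was also level, at 14.4, 17.3 and 17.2. The other 7 gamma genes with a start region in every library had lower folds at 72 h than at 0 h. Pcdhgb7 went from 14.4 to 9.04 and 4.68, Pcdhga3 from 13.6 to 9.80 and 5.46, and Pcdhga12 from 10.6 to 4.52 and 3.12. Pcdhga4, Pcdhga6, Pcdhga11, Pcdhgb2 and Pcdhgb4 had a start region at 0 h and none at 72 h.

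**Figure D4:**
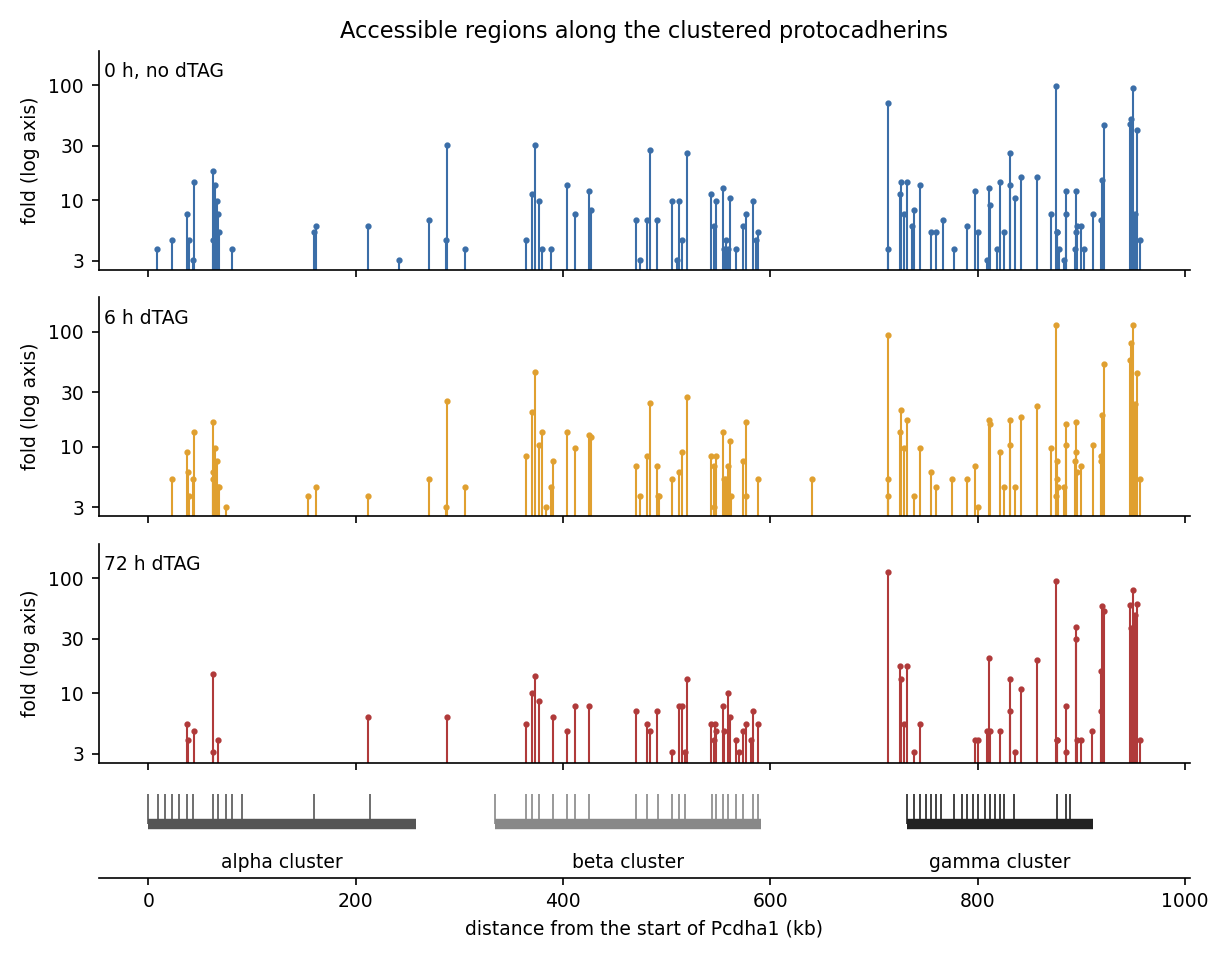
Accessible regions along the alpha, beta and gamma clusters and 50 kb beyond, as fold (log axis) against distance from the start of Pcdha1 (kb), 1 panel per library. Ticks above the bars mark gene starts. The alpha cluster thins at 72 h, beta regions at 72 h are all below a fold of 15, and the Pcdhgc3 start stays near 100.

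A second kind of region lay further into the genes. The annotation used gives no exons, so distance from the start is given. Within 1 to 3.5 kb after the start, a region was found in 12, 12 and 8 of 22 beta genes, with the median summit 2262, 2203 and 2360.5 bp after the start. In alpha it was found in 3, 3 and 0 of 14 genes (Pcdha6, Pcdha8 and Pcdhac1), and in gamma in 5, 2 and 2 of 21. The highest were those of Pcdhb3, with folds of 30.2, 45.2 and 14.1, Pcdhb14, with 25.7, 27.1 and 13.3, and Pcdhb10, with 27.2, 24.1 and 4.68. These 3 regions were higher than any beta start region at 0 h, and each was lower at 72 h than at 0 h. The files name no factor at these positions.

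Between the clusters, the interval from alpha to beta, beyond 10 kb of either, held 4, 4 and 1 regions. Its highest (chr18:37218277-37218484) had folds of 30.2, 24.9 and 6.25. An enhancer of the alpha genes is known to lie in this interval, and the files do not name it. The interval from beta to gamma held 2, 4 and 1 regions, the highest at the end of Taf7, a general transcription factor gene, with 70.3, 94.2 and 114. In the last part of gamma, some regions were higher at 72 h, against the trend of the cluster. One 5902 bp after the start of Pcdhgc5 (chr18:37825294-37825596) had 5.29, 9.04 and 37.5. Its neighbour (chr18:37824916-37825176) had 12.1, 16.6 and 29.7. Beyond the gamma genes and inside Diaph1, a formin gene, chr18:37849503-37849765 had 15.1, 18.8 and 57.0.

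To compare heights within one scale, each stretch listed at all 3 times was ranked by fold among the 98083 such stretches of the genome. There were 83 in protocadherin loci, and their median percentile was 44.8 before dTAG, then 39.4 and 24.0. Of these, 59 (71.1%) ranked lower at 72 h than at 0 h, against 52.8% of all stretches. The median percentile went from 36.4 to 19.5 in beta (25 stretches), from 44.8 to 26.0 in gamma (26), from 25.3 to 14.6 in alpha (5) and from 61.7 to 46.8 in single genes (27). Among stretches that ranked higher at 72 h were the 2 gamma stretches after Pcdhgc5 and in Diaph1 (11.4 to 76.2 and 53.4 to 84.5). Others were one in Pcdh7 (29.3 to 78.7) and one in the flank of Pcdh12, inside the span of Rnf14 (0.484 to 59.2). Stretches listed at every time made up 25 of 45 in beta, 26 of 50 in gamma, 5 of 21 in alpha and 27 of 119 in single genes, against 41.3% of all stretches.

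**Figure D5:**
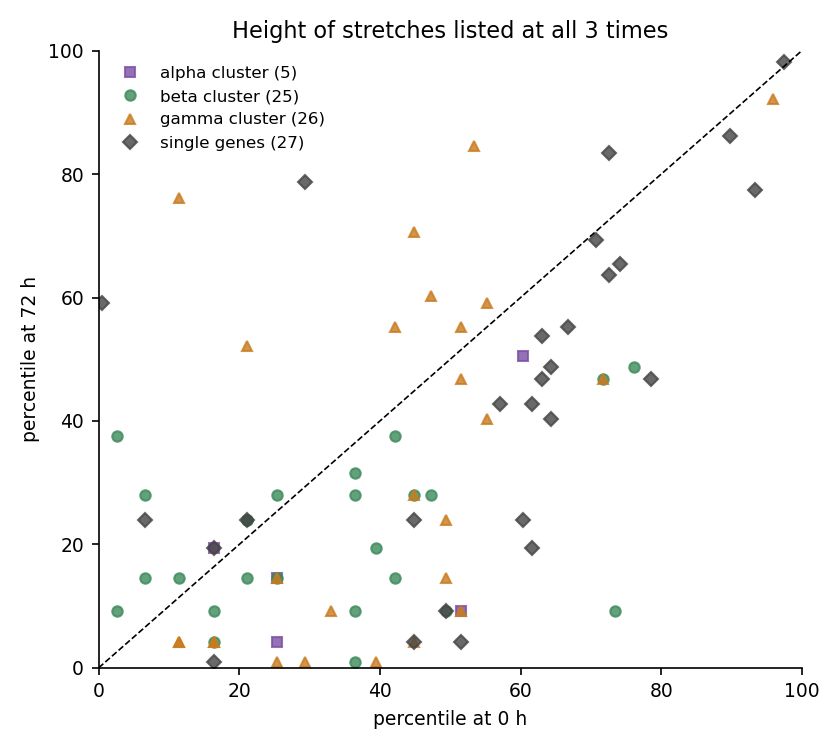
Percentile by fold at 72 h against that at 0 h, for the 83 stretches of protocadherin loci listed at all 3 times, ranked among 98083 such stretches. Points below the dashed line of equality (59 of 83) ranked lower at 72 h, and numbers in brackets are stretches per group.

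Among the single genes, Pcdh17, a delta-2 protocadherin of axon and synapse development, had the highest region of all members. It covered the start (chr14:84442843-84443887), with folds of 117, 154 and 170 and percentiles of 97.5, 98.3 and 98.1. A second region 10663 bp after the start had 26.5, 36.2 and 53.9. The locus held 6, 5 and 7 regions, and none of its 4 strong 0 h regions was absent at 72 h. Pcdh17 lies in the gene-poor part of the genome. The other delta-2 genes were nearly empty. Pcdh8 and Pcdh18 held 0 regions in each library, and Pcdh10 held 1, 1 and 0. Pcdh19 held 2, 4 and 1, the lasting one at -3339 bp from its start with folds of 26.5, 27.9 and 22.6.

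All 4 delta-1 loci held fewer regions at 72 h than at 0 h, with a few high ones left. Pcdh7 held 11, 19 and 8 regions, and 5 of its 9 strong 0 h regions were absent at 72 h. Its highest region (chr5:57714628-57715730, at -3041 bp from the start) had folds of 77.1, 85.9 and 39.8. The one over the given start had 8.32 and 8.29 and was not listed at 72 h, while the next, at -786 bp, had 19.7, 24.1 and 13.3. The annotated span begins before that start, at chr5:57716145. A stretch over this lower end (chr5:57715827-57716173) had folds of 20.4, 38.4 and 10.9 and was strong in each library. Its 72 h region (chr5:57715871-57715992) no longer reached that end. A region 222619 bp after the start (chr5:57940552-57940825) ran the other way, with 8.32, 15.1 and 42.2. Pcdh9 held 7, 15 and 3 regions. Of its regions at 6 h, those not listed at 0 h had folds between 3.01 and 6.03, near the lowest listed. Its highest, 366095 bp after the start, had 19.7, 27.9 and 16.4.

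Pcdh1 held 14, 14 and 5 regions, and 3 of its 8 strong 0 h regions were absent at 72 h. Its highest, at the upper end of its span (chr18:38212669-38213017), stayed level at 59.7, 64.8 and 63.2. Pcdh11x held 8, 7 and 7. Its highest lay at the lower end of its span (chrX:120289914-120290808) with 24.9, 44.5 and 28.1, and covered 3 separate pieces at 72 h. Pcdh11x also held the one strong region of all members that was gained by 72 h, at chrX:120347132-120347254 with a fold of 10.1.

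Pcdh15, a component of the tip link that opens hair cell channels, held 24, 23 and 7 regions. This was 0.345 (0.125 to 0.824) times the 0 h count at 72 h relative to all coding loci. Its highest region, 416618 bp after the start (chr10:74238380-74238710), had folds of 33.3, 30.9 and 13.3. Of its 7 strong 0 h regions 3 were absent at 72 h, with 0 h folds of 11.3, 8.32 and 8.32. None of its regions lay within 1 kb of the given start (chr10:73821867), which lies inside the annotated span that begins at chr10:73096277. The absent region with a 0 h fold of 11.3 (chr10:73098139-73098295) lay near that lower end. Pcdh12 held 6, 6 and 4 regions, of which 3, 3 and 1 lay in its own span. The highest at 0 h and 6 h (chr18:38286010-38286418) had folds of 20.4, 20.3 and 14.1. It lay in the flank beyond the upper end of Pcdh12, inside the span of Rnf14. A strong 0 h region beside it (chr18:38286708-38286855, fold 8.32) was absent at 72 h. Further into the same flank, also inside the span of Rnf14, chr18:38293784-38294000 ran the other way, with 3.02, 8.29 and 19.5. Pcdh20 held 3, 1 and 0, all with folds of at most 6.05.

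Other genes of the pathway were read from 3 lists. Among 23 regulators of clustered protocadherin choice and silencing, the 3 libraries gave 249, 265 and 267 regions, with a 72 h ratio of 1.27 (1.06 to 1.51) relative to all coding loci. Of 22 that passed the minimum at 72 h against 0 h, 0 were lower and 1 was higher (Stag2, a cohesin subunit gene, 9, 15 and 19), against a background of 13.3% and 1.55% that also applies to the other lists. Ctcf held 11, 14 and 16 regions and Mau2, the partner of NIPBL, 10, 12 and 7. The 20 genes of kinases and actin regulators downstream of protocadherins held 275, 277 and 263 regions (1.13, 0.951 to 1.34), with 1 lower and 0 higher of 20. Ptk2, the focal adhesion kinase gene, held 28, 20 and 12, and Fyn, a Src family kinase gene, 27, 29 and 17, whereas Cyfip1 of the WAVE complex held 8, 13 and 15.

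The shortfall at 72 h was not particular to protocadherins. The loci of 50 other cadherin superfamily genes contained 522, 518 and 333 regions, and the 72 h ratio was 0.754 (0.655 to 0.866), against 0.749 for the protocadherins. Of the 34 that passed the minimum 13 were lower (background 13.3%) and 0 higher (1.55%). The greatest differences were at Cdh13 (31, 28 and 9), Cdh4 (38, 44 and 19), Celsr1 (37, 40 and 22) and Cdh12 (18, 15 and 4), the last tied with Cdh18 (20, 21 and 6). Of their strong 0 h regions, 54 of 247 were absent at 72 h (21.9%, 16.9 to 27.5), an interval that includes the protocadherin share of 24.7%.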

How the data were processed

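ATAC-seq libraries from 3 groups with 1 library each were compared. Per the submitters' processing notes, BWA 0.7.17, MACS2 2.2.7, bedtools 2.30.0 and build mm10 were used; the options, the handling of duplicates and of reads with several positions, and the depth are not stated in the labels or headers. In the lists the authors deposited, each line has a fold (a ratio to background), a −log10 p-value, a −log10 q-value and a score, which was not used. No read counts were used, so depth is unknown and intervals cover counting of regions only.

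Regions were intersected with gene spans with 10 kb on each side with Python 3.11.15, pandas 2.3.3 and scipy 1.17.1, and overlap needed at least 1 bp. Intervals are exact: Clopper-Pearson for shares, the binomial split for ratios. The code that overlaps, counts and merges regions was checked on simulated data. The confidence intervals were not part of that check. Coordinates are mm10 and 1-based. Gene spans, starts and promoter sequences are from RefSeq, GRCm38.p6. The annotation used gives no strand for clustered genes and no exons.

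Members and lists were chosen with earlier results of these data known. The genes named are the clusters, some of their genes with a region, and every single gene. From the lists, up to 4 genes in each direction were named by the difference in regions between 0 h and 72 h (ties at the fourth place included). Not every gene of that rank was named. The regions named are a selection: the highest of most loci, some at starts, and some strong at one time and absent at another. Others were chosen after their values were seen. Pcdhgb8 is a pseudogene in the annotation, and 3 coding models across the clusters (Gm37013, Gm38666 and Gm38667) have other symbols; these were left out.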

Additional observations from a re-analysis of the deposited data

How the results depend on the processing

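Of 108 values recomputed under another setting, 93 stayed within the counting interval or within 1.5 times the count, and 15 did not. A change of direction could be called only for count ratios whose main interval excluded 1. These were the 72 h ratios of all protocadherins and of single genes, and 0 alternatives were called. For all other values the check could not call one. Counting only regions that reached a −log10 q of 10, the 72 h ratio was 0.521 for all protocadherins and 0.324 (0.0922 to 0.938) for beta. With a fold of at least 10 the beta ratio was 0.398 (0.0897 to 1.43), against 1.11 in the main setting. With strong defined as a fold of at least 10, the absent share at 72 h was 9.43% for all members and 16.0% for single genes. At 6 h both the absent and the newly present share were 0% for all members, and the absent share was 0% for single genes, also with a −log10 q of at least 10. With equal numbers of regions per list (145044), 2 members were lower and 1 higher at 6 h, and 4 were lower at 72 h. At 6 h, 1 member was higher with at least 12 regions and 0 with 50 kb on each side. Within 250 bp of the start, 1 single gene had a region at 72 h. Apart from the equal lists, which hold fewer regions, the cause was not tested. No paired analysis was possible because each time has 1 library. A locus without a region can hold signal under the lowest listed fold, 3.02 at 0 h, 3.01 at 6 h and 3.12 at 72 h.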

Other observations

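Of 28 coding genes within 500 kb of the clusters, not counting 3 models that run across them, 14 held fewer regions at 72 h than at 0 h, 9 held more and 5 the same; neighbours share regions. Diaph1, which follows the gamma cluster, held 25, 30 and 35 regions with 10 kb on each side, and Hdac3 behind it held 12, 13 and 16. Fchsd1, further on, held 15, 12 and 12. On the alpha side Zmat2, the nearest gene, held 7, 6 and 4, and Cd14, a myeloid receptor gene, 8, 11 and 10. The interval from 10 to 50 kb after the gamma cluster held 9, 8 and 9 regions, where chr18:37881361-37881630 had folds of 7.56, 23.4 and 47.6 and chr18:37880142-37880601 had 94.5, 115 and 78.8.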
